A study of Mus musculus with 6 samples.

Results

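The insulin-like growth factor (IGF) genes examined here were the 2 ligands *Igf1* and *Igf2*, the 2 receptors *Igf1r* and *Igf2r*, and the 6 binding proteins *Igfbp2*, *Igfbp3*, *Igfbp4*, *Igfbp5*, *Igfbp6* and *Igfbp7*. They were chosen by gene symbol, and the 10 symbols matched 10 of the 32350 entries of the expression table. All 10 were among the 13535 entries tested. The RNA came from calvaria, the bony plates that roof the skull. There were 3 heterozygous pups (Tmem53+/-) and 3 pups homozygous for the mutation (Tmem53-/-), all mice of strain B6N at postnatal day 3, and each gave its own library. *Tmem53* encodes a transmembrane protein of the nuclear envelope. The mouse lines were made with CRISPR/Cas9 and carry frame-shift mutations, which are present in every cell of the animal. The heterozygous pups, which served as controls, carry 1 such allele, and no wild-type pup was among the samples. The labels do not name the line of these pups, and the study took the line Tmem53 1bin/1bin into its detailed experiments.

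IGF1 and IGF2 are secreted growth factors that signal through the tyrosine kinase IGF1R. IGF2R, which also sorts lysosomal enzymes, binds IGF2 and carries it to degradation. The binding proteins hold the ligands outside the cell, lengthen their life and keep them from or deliver them to the receptor, and proteases free the ligands again. In bone, osteoblasts make both ligands and most binding proteins, and IGF stored in the matrix is known to promote bone formation.

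The libraries were measured in FPKM, a count of sequenced fragments scaled to the length of the gene and to the size of the library. Summed over all entries, a library held 569846 to 611928 FPKM. The most common ratio between libraries of low values of the same entry put the depths at 0.866 to 1.20 of heterozygous replicate 1. Heterozygous replicate 2 and mutant replicate 3 stood apart. Pearson's r across genes, which are not replicates, was 0.991 between heterozygous replicates 1 and 3 but 0.956 and 0.957 between these and replicate 2, and mutant replicate 3 had 0.952 and 0.959 with the other 2 mutants. *Col1a1* and *Col1a2*, the chains of the type I collagen that osteoblasts and fibroblasts make, were listed at 0 in these 2 libraries and at 2309 FPKM or more in the other 4. A 0 in a table without counts can be a failed estimate, so these zeros are not read as levels. Other osteoblast genes were present in all 6 libraries, such as *Alpl* at 42.3 to 182 FPKM. Heterozygous replicates 1 and 3 had *Xist* at 102 FPKM and were female by this gene, whereas heterozygous replicate 2 and all mutants expressed the Y-linked *Ddx3y*, so sex and genotype overlapped in part. *Tmem53* itself was at 6.38 to 7.22 FPKM in heterozygous pups and higher in all mutants, at up to 13.9 FPKM, which does not check the genotypes because a frame-shift allele can still be transcribed. In such bulk tissue, fewer cells of a type and less RNA per cell cannot be told apart.

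The mutant libraries had more *Igfbp5* mRNA than the heterozygous libraries, and this was the 1 gene of the 10 that passed the test. *Igfbp2* and *Igfbp3* were also higher in every mutant than in every heterozygous pup, by 2.43-fold and 2.09-fold of the group means, but missed the threshold. Without mutant replicate 3, the log2 fold change of *Igfbp3* was 0.44 instead of 0.93. The test was limma on log2(FPKM + 0.5), with Benjamini-Hochberg adjustment over all 13535 entries, and adjusted p-values under 0.05 counted as calls. Of the 10 genes, 1 was called higher, against 3.44% of all entries, and 0 were called lower, against 3.63%. In either direction 7.06% of all entries were called. At an unadjusted p under 0.05 there were 2 genes higher and 0 lower, or 2 of 10 beside 27.9% of all entries, and a linear model with no moderation of the variance called 0 of the 10. The mutants lay above all heterozygous pups for 3 of 10 genes, where 21.2% of all entries did so, and below them for 0 of 10, where 16% of all entries did so. The median log2 fold change of the 10 was 0.16, beside 0.05 over all entries.

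**Figure D1:**
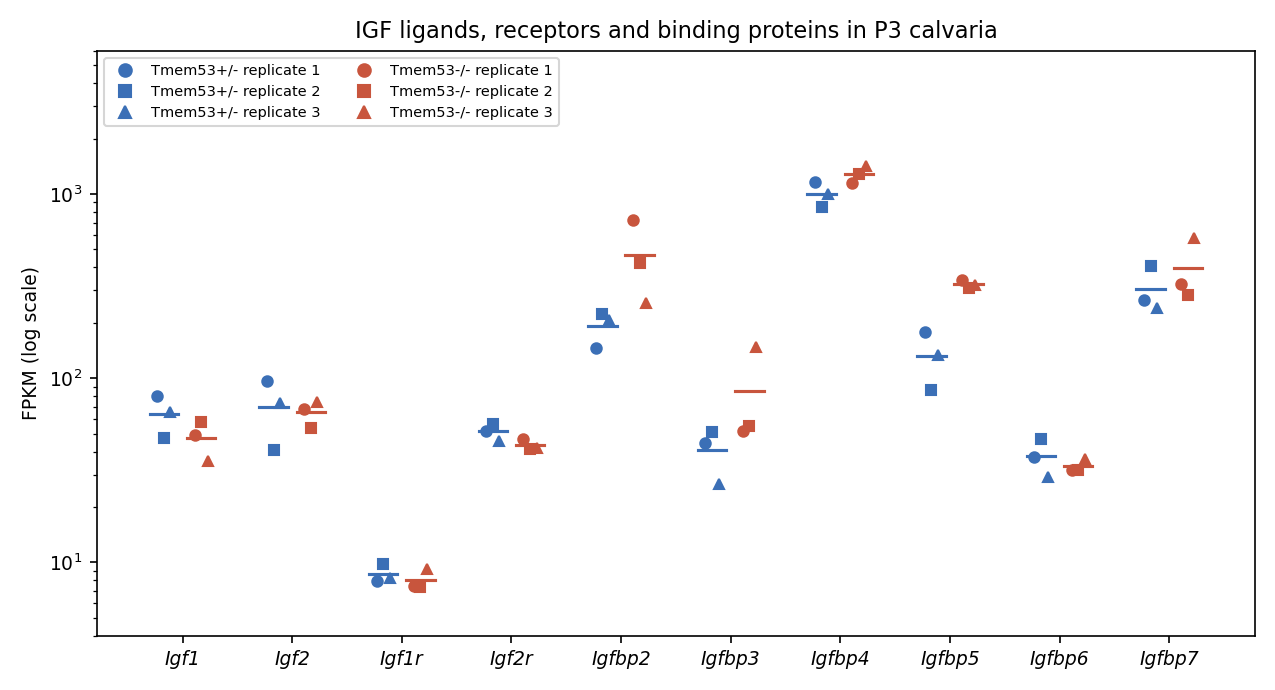
FPKM of the 10 IGF genes on a log axis, with a marker for each library (circle, square and triangle for replicates 1, 2 and 3), heterozygous pups in blue and mutants in red, and a bar at the mean of each group. The 3 mutants lie at 309 to 343 FPKM for *Igfbp5*, above all heterozygous pups, whereas most other genes overlap between the genotypes.

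*Igfbp5* and *Igfbp2* are neighbours on chromosome 1. In the table's coordinates (NCBI build37.2) *Igfbp2* spans 72871077 to 72899057 and *Igfbp5* spans 72904638 to 72921439, which leaves 5581 bases between them. The genes lie tail to tail on opposite strands. Their promoters are shown because these 2 neighbours had the largest differences of the family. The sequences are the 250 bases before each annotated start, from RefSeq on GRCm38.p6, written 5′ to 3′ on the strand of the gene. All 10 genes were found there, with 14 starts. Capitals mark the SMAD box, the short element GTCT (AGAC on the other strand) that SMAD proteins, the carriers of BMP signals studied here, bind in DNA.
Igfbp5 (chr1:72874866-72875115, minus strand): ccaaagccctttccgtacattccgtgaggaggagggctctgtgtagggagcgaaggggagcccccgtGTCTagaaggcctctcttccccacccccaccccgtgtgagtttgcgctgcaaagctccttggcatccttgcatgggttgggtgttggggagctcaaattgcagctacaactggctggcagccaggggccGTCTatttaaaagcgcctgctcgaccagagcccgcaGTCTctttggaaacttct
Igfbp2, upstream start (chr1:72824230-72824479, plus strand): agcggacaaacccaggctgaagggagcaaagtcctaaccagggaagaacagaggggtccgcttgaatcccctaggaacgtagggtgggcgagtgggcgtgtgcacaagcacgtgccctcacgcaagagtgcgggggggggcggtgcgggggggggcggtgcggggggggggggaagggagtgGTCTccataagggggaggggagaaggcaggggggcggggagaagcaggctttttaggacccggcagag
Igfbp2, downstream start (chr1:72825137-72825386, plus strand): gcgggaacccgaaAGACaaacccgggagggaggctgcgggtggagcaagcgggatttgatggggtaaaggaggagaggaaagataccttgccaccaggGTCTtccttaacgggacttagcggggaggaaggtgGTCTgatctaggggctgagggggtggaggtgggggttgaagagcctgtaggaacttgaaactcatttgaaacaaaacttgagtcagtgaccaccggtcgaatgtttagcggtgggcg
The *Igfbp5* window holds 3 SMAD boxes, the upstream *Igfbp2* window 1 and the downstream window 3. Such matches are common. At least 1 SMAD box was in 82.9% of the 32851 windows of all genes, the median was 2 per window, and 29.1% of windows had 3 or more. Searched on both strands in the same way, the GC-rich SMAD element GGCGCC (9.59% of all windows) was in the *Igf1* window alone of the 10 genes, the RUNX core TGTGGT (14.1%) in the *Igfbp3* window and the TATA box TATAAA (12.4%) in those of *Igfbp4* and *Igfbp6*. A match is a description of the letters and not a site in use.

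Among the ligands, *Igf1*, a growth factor that osteoblasts, macrophages and other cells make, was at 79.6, 47.3 and 65.7 FPKM in heterozygous replicates 1, 2 and 3 and at 49.2, 57.7 and 35.5 FPKM in mutant replicates 1, 2 and 3. The groups overlapped, with the highest level in heterozygous replicate 1 and the lowest in mutant replicate 3. The log2 fold change was −0.43 (SE 0.247, 95% confidence interval −1.02 to 0.16, limma adjusted p = 0.302). Of the 8 macrophage genes tested, 8 ordered the mutant libraries as *Igf1* did, and 2 so ordered the heterozygous libraries. *Csf1r*, a receptor for colony-stimulating factor and among those 2, was at 106, 68.7 and 87.3 FPKM in the heterozygous pups and at 25.1, 39.6 and 3.76 FPKM in the mutants. *Cd163* was at 0.628, 0.482 and 0.435 FPKM in heterozygous and at 0.527, 1.01 and 0.207 FPKM in mutant pups (log2 fold change 0.03). *Cd163* and *Mrc1* overlapped between the genotypes. The other 6 macrophage genes were lower in every mutant than in every heterozygous pup, as were 16% of all entries. The sum of the 8 macrophage genes ran from 1016 to 1180 FPKM in heterozygous and from 84.6 to 853 FPKM in mutant pups, with 0 of 8 called (2 lower at an unadjusted p under 0.05, 0 called without moderation) and none of the 8 at 0. Of 6 osteoclast genes tested, 6 ordered the heterozygous and 5 the mutant libraries as *Igf1* did, 4 were called lower, and *Tm7sf4* was listed at 0 in mutant replicate 3. Of all entries, 3.63% were called lower. The osteoclast list summed to 672 to 3853 FPKM in heterozygous and 201 to 334 FPKM in mutant pups. How many of all entries share these orders was not counted, so the counts of orders have no background. Genes of 1 list are also not independent of each other. The part of macrophage or osteoclast RNA in the level of *Igf1* was not tested.

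*Igf2*, the fetal growth factor that is expressed from the paternal allele, was at 96.4, 40.6 and 73.6 FPKM in heterozygous and at 68.4, 53.8 and 73.9 FPKM in mutant pups. All 3 mutants lay within the range of the heterozygous pups, and the log2 fold change was −0.03 (SE 0.317, interval −0.79 to 0.73, adjusted p = 0.963), with a sign that turned without heterozygous replicate 1, heterozygous replicate 3 or mutant replicate 2 (0.24, 0.05 and 0.10). Against the male heterozygous pup alone, at 40.6 FPKM, all 3 male mutants were higher. *H19*, the noncoding RNA of the same imprinted region made from the maternal allele, had its lowest level in the same pup as *Igf2*. It was at 582, 266 and 441 FPKM in heterozygous and at 379, 391 and 401 FPKM in mutant pups, with a log2 fold change of −0.07 (SE 0.280, adjusted p = 0.906). The ratio of *H19* to *Igf2* stayed between 5.43 and 7.27 in the 6 libraries. The 2 ligands together had 88.0 to 176 FPKM in heterozygous and 109 to 118 FPKM in mutant pups, and *Igf2* exceeded *Igf1* in 4 of the 6 libraries, with ratios from 0.858 to 2.08.

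*Igf1r*, the signaling receptor for both ligands, was at 7.88, 9.80 and 8.21 FPKM in heterozygous and at 7.42, 7.35 and 9.18 FPKM in mutant pups. It had the lowest level of the 10 genes in every library, and the groups overlapped (log2 fold change −0.11, SE 0.132, interval −0.43 to 0.21, adjusted p = 0.636). *Igf2r*, the clearance receptor for IGF2, was at 51.8, 56.6 and 45.9 FPKM in heterozygous and at 46.6, 41.1 and 42.0 FPKM in mutant pups. The ranges met only in heterozygous replicate 3 and mutant replicate 1, and the log2 fold change of −0.24 (SE 0.109, interval −0.51 to 0.02, unadjusted p = 0.0633 by limma) had an adjusted p of 0.203. *Igf2r* was 4.58 to 6.58 times as high as *Igf1r* in FPKM. *Airn*, the noncoding RNA that overlaps *Igf2r* on the other strand, had log2 fold changes of 0.86 (adjusted p = 0.0745) and 0.28 (adjusted p = 0.326) in its 2 entries. Whether the counting used the strand is not stated, so reads of *Igf2r* and *Airn* where they overlap may not be told apart.

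*Igfbp5*, the binding protein that attaches to bone mineral and matrix, was at 178, 85.9 and 134 FPKM in heterozygous replicates 1, 2 and 3 and at 343, 309 and 322 FPKM in mutant replicates 1, 2 and 3. The mutants lay close together, with a coefficient of variation of 5.30% against 34.9% in the heterozygous pups, and the groups did not overlap. Means were 133 ± 46.3 FPKM and 325 ± 17.2 FPKM (SD, n = 3 each), a ratio of 2.45, and the log2 fold change was 1.35 (SE 0.259, interval 0.72 to 1.97, limma adjusted p = 0.0365). The exact two-sided permutation test of this gene gave p = 0.1, the smallest that 3 against 3 allow. The call was lost in 8 of 21 alternative analyses. It was lost without heterozygous replicate 1 (adjusted p = 0.0631), heterozygous replicate 3 (0.124), mutant replicate 1 (0.123), mutant replicate 2 (0.0893) or mutant replicate 3 (0.0655), but not without heterozygous replicate 2 (0.0156). The log2 fold change was positive in all 21, from 1.07 to 1.91. With sex as a covariate it was 1.91. That fit sets the mutants, all male, against heterozygous replicate 2 alone, the only male heterozygous pup. This library stood apart and had the lowest *Igfbp5* level of all 6, so the larger value does not show that the difference is free of sex. Over all entries, 3.44% were called higher and 3.63% lower. Of 9 entries for 8 osteoblast genes 6 were called higher and 0 lower (0 lower at an unadjusted p under 0.05). Of the other 3, the low entry of *Runx2* (0.364 to 1.04 FPKM) overlapped between the genotypes. *Col1a1* and *Col1a2* overlapped only through their zeros. In heterozygous replicates 1 and 3, *Col1a1* was at 2960 and 2614 FPKM and *Col1a2* at 2572 and 2309 FPKM. In mutant replicates 1 and 2, *Col1a1* was at 3173 and 4090 FPKM and *Col1a2* at 2817 and 3300 FPKM. The sum of the list was not used because *Col1a1* and *Col1a2* are listed at 0 in 2 libraries. Of the 6 called entries, 5 were highest in mutant replicate 3 and 1 in mutant replicate 2. *Igfbp5* was highest in mutant replicate 1, by a small margin. In the heterozygous pups *Sp7*, at 5.15, 4.16 and 4.24 FPKM, had the order of *Igfbp5*, and the other called entries did not. The coefficients of variation of the called entries across the mutants ran from 16.1% to 62.1%. These orders were not counted over all entries and have no background. The part of osteoblast RNA in the *Igfbp5* level was not tested.

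**Figure D2:**
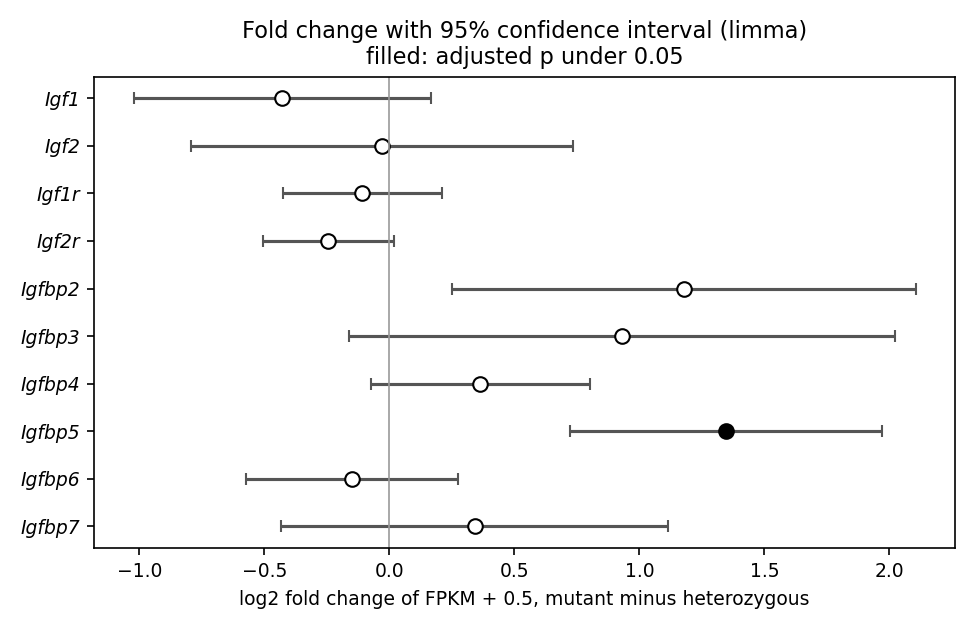
Log2 fold change of FPKM + 0.5 (mutant minus heterozygous) for each IGF gene, as a point with its 95% confidence interval from limma, filled where the adjusted p was under 0.05. *Igfbp5* is the filled point at 1.35, the interval of *Igfbp2* (0.25 to 2.1) also lies above 0, and the other 8 intervals include 0.

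*Igfbp2*, a binding protein with affinity for both ligands that cartilage and fetal tissues make, was at 146, 223 and 207 FPKM in heterozygous and at 725, 421 and 256 FPKM in mutant pups. Every mutant was above every heterozygous pup, but the mutants spread widely, with replicate 1 at the top and replicate 3 close to the heterozygous range. The log2 fold change was 1.18 (SE 0.385, interval 0.25 to 2.1, adjusted p = 0.111). It passed the threshold without mutant replicate 3 (1.55, adjusted p = 0.0483) and without heterozygous replicate 2 and mutant replicate 3 together (1.67, adjusted p = 0.0182). All 8 cartilage genes had the same order of mutants. Among the heterozygous pups *Col2a1*, *Col11a2* and *Matn1* had the order of *Igfbp2*, and the other cartilage genes did not. *Col2a1*, the main collagen of cartilage, was at 41.1, 75.1 and 50.3 FPKM in heterozygous and at 2932, 1526 and 326 FPKM in mutant pups. The 8 cartilage genes summed to 71.6 to 103 FPKM in heterozygous and 528 to 4567 FPKM in mutant pups, 7 of 8 were called higher and 0 lower, and none was at 0. Of all entries, 3.44% were called higher and 3.63% lower. The share of all entries with these orders was not counted, so the orders have no background. The part of cartilage RNA in the *Igfbp2* level was not tested. The ratio of *Igfbp5* to *Igfbp2* overlapped between the genotypes, at 0.384 to 1.23 in heterozygous and 0.473 to 1.26 in mutant pups.

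*Igfbp3*, the main carrier of IGF in serum, was at 44.2, 51.0 and 26.5 FPKM in heterozygous and at 51.6, 54.9 and 148 FPKM in mutant pups. Mutant replicate 3 was far above all others, and mutant replicate 1 exceeded heterozygous replicate 2 by less than 1 FPKM. The log2 fold change was 0.93 (SE 0.453, interval −0.16 to 2.02, adjusted p = 0.234) and was 0.44 without mutant replicate 3. *Igfbp7*, a secreted relative that binds IGF weakly, was also highest in mutant replicate 3. It was at 267, 407 and 240 FPKM in heterozygous and at 326, 284 and 574 FPKM in mutant pups, the groups overlapped, and the log2 fold change was 0.34 (SE 0.321, interval −0.43 to 1.11, adjusted p = 0.53). *Igfbp7* is also known from blood vessels. Of 7 endothelial genes 1 was tested, *Tek* at 0.485 to 1.32 FPKM, and the others were below the filter. The 7 summed to 0.980 to 1.33 FPKM in heterozygous and 0.838 to 1.49 FPKM in mutant pups. A sum this near the floor gives no level of vessels. *Tie1* and *Cldn5* were listed at 0 in all 6 libraries, as were the hemoglobin genes *Hba-a1*, *Hba-a2* and *Hbb-b1*. The part of vessel RNA in the *Igfbp7* level was not tested. The 8 genes of suture mesenchyme and fibroblasts summed to 1966 to 2039 FPKM in heterozygous and 1520 to 2773 FPKM in mutant pups. This sum was highest in mutant replicate 3, but of the 8 tested entries 3 were highest there (*Postn*, *Lum* and *Prrx1*). The 2 entries called higher, *Gli1* and *Axin2*, were highest in mutant replicate 1, and 3.44% of all entries were called higher. No entry was called lower, and 1 was lower at an unadjusted p under 0.05. This was *Pdgfra*, at 21.9, 22.0 and 22.4 FPKM in heterozygous and at 18.4, 12.6 and 12.2 FPKM in mutant pups (log2 fold change −0.63). The part of these cells in *Igfbp3* and *Igfbp7* was not tested.

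**Figure D3:**
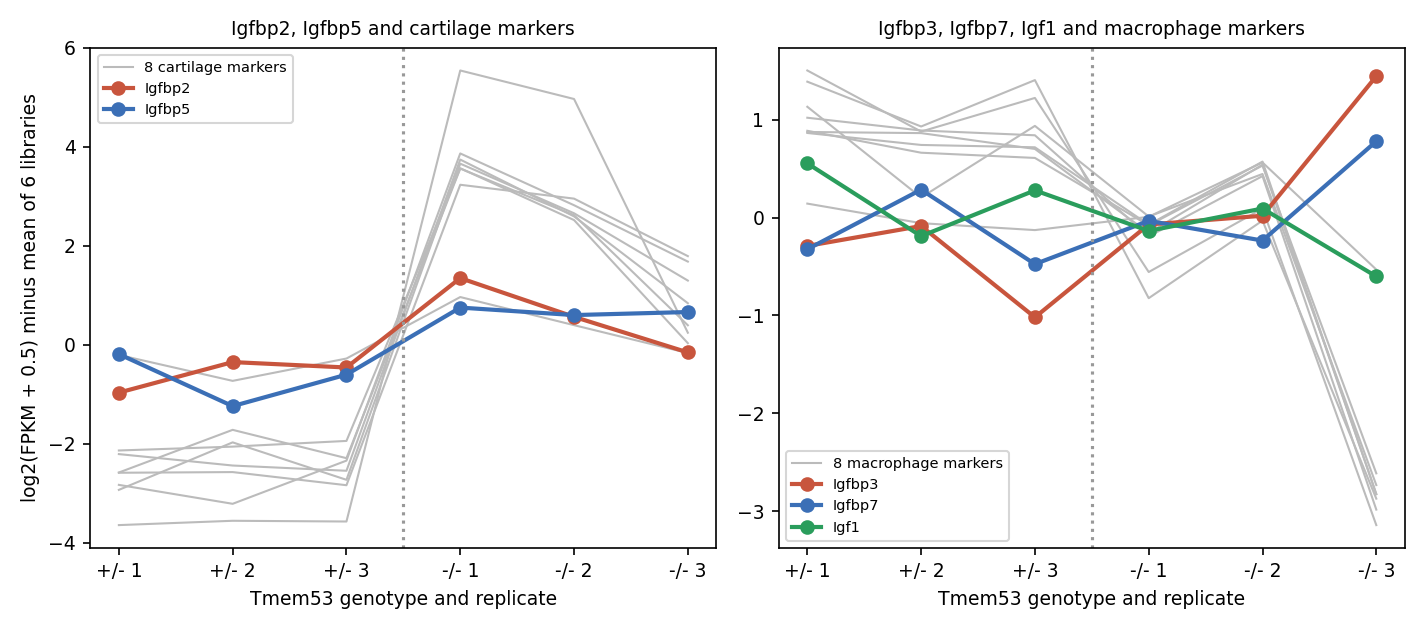
Log2(FPKM + 0.5) minus the mean of the 6 libraries for *Igfbp2* and *Igfbp5* beside 8 cartilage genes (left, grey) and for *Igfbp3*, *Igfbp7* and *Igf1* beside 8 macrophage genes (right, grey), with each line joining the values of a gene across the libraries. *Igfbp2* is highest in mutant replicate 1 as all 8 cartilage genes are, *Igfbp5* is level across the mutants, and mutant replicate 3 has the lowest *Igf1* and the highest *Igfbp3* and *Igfbp7*.

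*Igfbp4*, which holds IGF back from the receptor until a protease cleaves it, was the most abundant of the 10 genes in every library. It was at 1157, 851 and 997 FPKM in heterozygous and at 1144, 1286 and 1423 FPKM in mutant pups, and mutant replicate 1 lay below heterozygous replicate 1. The log2 fold change was 0.36 (SE 0.181, interval −0.07 to 0.80, adjusted p = 0.243) and turned to −0.034 under quantile normalization. *Igfbp6*, which prefers IGF2, was at 37.3, 46.5 and 29.2 FPKM in heterozygous and at 31.9, 31.6 and 36.6 FPKM in mutant pups. All 3 mutants lay within the heterozygous range (log2 fold change −0.15, SE 0.176, interval −0.57 to 0.28, adjusted p = 0.623). *Igfbp1*, the neighbour of *Igfbp3* on chromosome 11 at a distance of 3539 bases and a product of liver, was listed at 0 in all 6 libraries.

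By mean FPKM over the 6 libraries, which is a level per length, the order was *Igfbp4* (1143), *Igfbp7* (350), *Igfbp2* (329.8), *Igfbp5* (229), *Igf2* (67.8), *Igfbp3* (62.8), *Igf1* (55.8), *Igf2r* (47.3), *Igfbp6* (35.5) and *Igf1r* (8.30). Neighbours in this order kept their places in all 6 libraries only for *Igfbp4* over *Igfbp7*, *Igfbp5* over *Igf2*, *Igf2r* over *Igfbp6* and *Igfbp6* over *Igf1r*. The others changed places within the spread of the libraries, such as *Igfbp2* and *Igfbp5*, with *Igfbp2* higher in 4 of 6.

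The binding protein FPKM summed to 1830, 1666 and 1634 in the heterozygous and 2622, 2386 and 2760 in the mutant libraries. The mutant sums were all higher. *Igfbp4* made up 51.1% to 63.2% of the sum in heterozygous and 43.6% to 53.9% in mutant pups, *Igfbp2* 7.96% to 13.4% and 9.27% to 27.7%, and *Igfbp5* 5.16% to 9.76% and 11.7% to 13.1%. The share of *Igfbp5* did not overlap between the genotypes, whereas those of *Igfbp4* and *Igfbp2* did. The binding proteins exceeded the ligands 10.4-fold, 18.9-fold and 11.7-fold in the heterozygous and 22.3-fold, 21.4-fold and 25.2-fold in the mutant libraries. These sums are of mRNA, are dominated by *Igfbp4*, and were not tested.

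**Figure D4:**
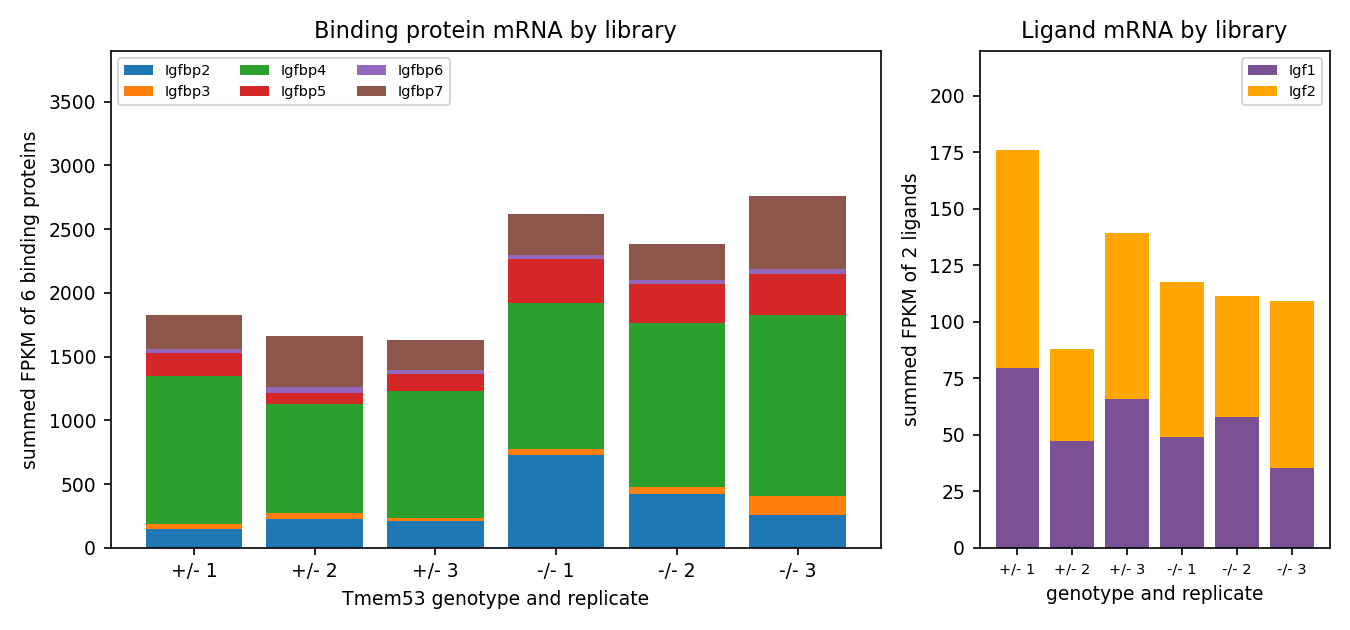
Stacked FPKM of the 6 binding protein genes (left) and of the 2 ligand genes (right) in each library, named by *Tmem53* genotype and replicate. The binding protein sums are 1634 to 1830 in heterozygous and 2386 to 2760 in mutant libraries, and the ligand sums 88.0 to 176 and 109 to 118.

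The genes most like *Igfbp5* over the 6 libraries, by Pearson's r on log2(FPKM + 0.5) among 9106 genes whose mean reached 5 FPKM, were *H13* (signal peptide peptidase, r = 0.993), *Fam57a* (r = 0.992) and *Mta3* (a subunit of a chromatin remodeling complex, r = 0.992). These values are over 6 libraries that share the difference between the genotypes. The log2 fold changes were 0.83 for *H13*, 0.86 for *Fam57a* and 0.26 for *Mta3*, with limma adjusted p of 0.034, 0.047 and 0.103. Their direction follows from picking genes for likeness to *Igfbp5*, so these are not separate results.

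Around the 10 genes, 69 further genes of the pathway were listed in 4 groups, and 64 entries of 62 of them were tested. Of these entries 3 were called higher and 4 lower, 10.9% in all against 7.06% of all entries. Among 17 genes that control how much IGF is available, 14 were tested, 0 were called higher (3 at an unadjusted p under 0.05, 0 without moderation) and 2 lower. The 2 were *Igf2bp3*, an RNA-binding protein known to bind *Igf2* mRNA, and *Adam12*, a protease known in humans to cut IGFBP3 and IGFBP5. *Igf2bp3* was at 9.75, 8.71 and 9.64 FPKM in heterozygous and at 4.97, 5.99 and 3.59 FPKM in mutant pups (log2 fold change −0.91, SE 0.178, adjusted p = 0.0378). *Adam12* was at 28.7, 39.5 and 27.4 FPKM in heterozygous and at 15.8, 14.2 and 20.7 FPKM in mutant pups (−0.89, SE 0.193, adjusted p = 0.047). For each gene every mutant was below every heterozygous pup.

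*Pappa*, the protease that cleaves IGFBP4 and IGFBP5, and its inhibitor *Stc2* differed in opposite directions and missed the threshold. *Pappa* was at 23.8, 33.4 and 25.9 FPKM in heterozygous and at 14.0, 14.8 and 19.8 FPKM in mutant pups (log2 fold change −0.76, SE 0.180, adjusted p = 0.0562). *Stc2* was at 1.12, 2.49 and 1.24 FPKM in heterozygous and at 3.53, 3.40 and 7.56 FPKM in mutant pups (1.30, SE 0.362, adjusted p = 0.0783). Neither gene overlapped between the genotypes. The related inhibitor *Stc1* stayed at 2.02 FPKM or less in every library, and its groups overlapped (−0.23, adjusted p = 0.761).

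Of 32 genes of the insulin and IGF receptor signal, 31 were tested, 2 were called higher and 1 lower. These calls were 9.68% of the list, beside 7.06% of all entries. *Irs1*, the adaptor that carries the signal from IGF1R to PI3-kinase, was at 13.4, 14.4 and 12.9 FPKM in heterozygous and at 27.7, 24.7 and 22.9 FPKM in mutant pups. The genotypes were well apart and each was tight (log2 fold change 0.86, SE 0.102, adjusted p = 0.0133). *Grb10*, an imprinted adaptor that restrains the same receptors, was at 97.7, 101 and 96.0 FPKM in heterozygous and at 154, 147 and 156 FPKM in mutant pups (0.63, SE 0.0848, adjusted p = 0.0197). *Pik3cb*, a catalytic subunit of PI3-kinase, was at 11.9, 5.17 and 9.32 FPKM in heterozygous and at 2.47, 2.39 and 1.05 FPKM in mutant pups (−1.90, SE 0.368, adjusted p = 0.037). The activating adaptor *Irs1* and the restraining adaptor *Grb10* were thus both higher in all mutants. The insulin receptor gene *Insr*, at 4.11 to 5.74 FPKM in the 6 libraries, had a log2 fold change of 0.01 (interval −0.31 to 0.33, adjusted p = 0.959), and *Irs2* one of −0.08 (adjusted p = 0.806).

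In the growth hormone axis, which drives *Igf1* in liver, 8 genes were tested, 0 were called higher (0 at an unadjusted p under 0.05, 0 without moderation) and 1 lower. The 1 was *Socs3*, a feedback inhibitor of cytokine receptors, at 32.7, 26.6 and 31.1 FPKM in heterozygous and at 19.3, 20.4 and 21.9 FPKM in mutant pups (log2 fold change −0.54, SE 0.108, adjusted p = 0.04). The receptor gene *Ghr* had a log2 fold change of 0.03 (adjusted p = 0.908). Of 12 imprinted growth genes 9 were tested in 11 entries, 1 was called higher and 0 lower (0 at an unadjusted p under 0.05, 0 without moderation). Calls made up 12.5% of the growth hormone list and 9.09% of the imprinted entries, beside 7.06% of all entries. *Mest*, a paternally expressed gene of mesoderm, was at 102, 42.9 and 85.2 FPKM in heterozygous and at 400, 379 and 276 FPKM in mutant pups (2.26, SE 0.336, adjusted p = 0.0225). Like *Igfbp5*, it was lowest in heterozygous replicate 2 and did not overlap between the genotypes. The medians of the 4 groups, −0.08, 0.01, 0.03 and 0.06, lay near the 0.05 of all entries. Without heterozygous replicate 1, heterozygous replicate 3, mutant replicate 1 or mutant replicate 2 none of the 7 called genes passed, with adjusted p from 0.0533 to 0.146, and without mutant replicate 3 *Pik3cb* (0.0549) and *Socs3* (0.0555) also missed. With sex as a covariate, which sets the mutants against heterozygous replicate 2 alone, *Igf2bp3*, *Pik3cb* and *Socs3* missed as well. Their log2 fold changes were then smaller, at −0.81, −1.26 and −0.37.

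**Figure D5:**
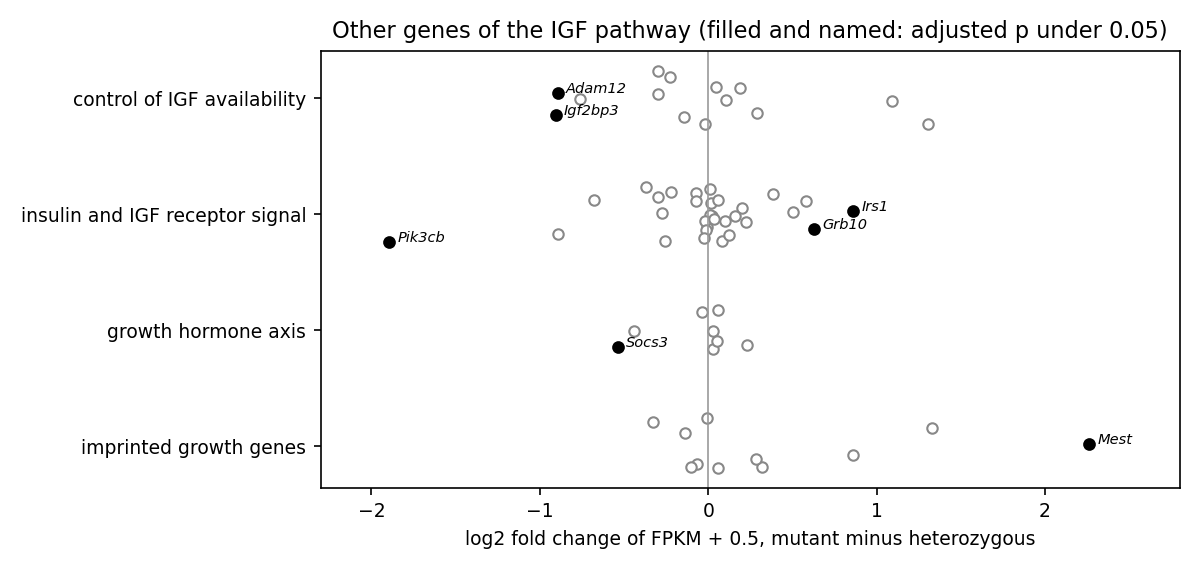
Log2 fold change of FPKM + 0.5 (mutant minus heterozygous) for every tested entry of the 4 pathway lists, each circle a table entry, spread vertically for legibility, filled and named where the adjusted p was under 0.05. *Mest*, *Irs1* and *Grb10* lie to the right of 0, and *Pik3cb*, *Igf2bp3*, *Adam12* and *Socs3* to the left.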

How the data were processed

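Total RNA of 6 calvaria was depleted of ribosomal RNA and made into directional, paired-end libraries. After adapter trimming, the authors ran TopHat2 2.1.1 against NCBI build37.2 and made the deposited FPKM values with Cufflinks 2.1.1 and Cuffdiff 2.1.1, with 1 column per pup. The sources used here state neither the annotation and strand setting nor how libraries were normalized to each other, and the authors' Cuffdiff test was not repeated because it needs the reads. Read counts are not known, so the precision of a value rests on the spread between pups.

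FPKM were used as deposited. Entries with a symbol and a mean of at least 0.5 FPKM were fitted with limma 3.58.1 (eBayes with a trend) in R 4.3.3 on log2(FPKM + 0.5). The added 0.5 understates changes of low genes. P-values were adjusted over all 13535 entries. Tested on simulated data with 200 of 13535 entries changed by a log2 fold change of 2 in either direction, the procedure called 176 of the 200 and 6 unchanged entries, and 0 with no entry changed. The simulated noise was independent between entries. Single genes were also compared by exact two-sided permutation. There were 21 alternatives, covering the pseudocount, filters, scaling, variance model, sex, replicate block and left-out libraries.

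The members and gene lists were chosen with earlier results of these data known. Named genes were the 10 members, *Igfbp1*, *Insr*, *Irs1*, *Irs2*, *Pappa*, *Stc1*, *Stc2*, *H19*, *Grb10* and *Ghr*, up to 4 called genes of lowest adjusted p per direction and list, and the 3 genes most like each called member. *Airn* and the marker genes given as examples were named after their values were seen. Promoters came from RefSeq on GRCm38.p6, another build than that of the table, and coordinates were not converted between builds.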

Additional observations from a re-analysis of the deposited data

How the results depend on the processing

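The number of IGF genes called was 1, with 956 over all entries and 7 on the pathway lists. It was 0, 621 and 3 with no filter on low values, 2, 4744 and 29 with array weights, and 0, 104 and 1 with no moderation of the variance. Without heterozygous replicate 2 and mutant replicate 3 together it was 2, 3675 and 20. Leaving out 1 library at a time gave 0 to 1 IGF genes, 14 to 2216 entries and 0 to 12 pathway entries, with the most calls without heterozygous replicate 2 (2216 entries) and the fewest without heterozygous replicate 3 (14). *Igfbp2* was called with array weights (adjusted p = 0.0106). The sign of *Igf2* turned with sex as a covariate (0.67) and in 3 of the omissions (from −0.47 to 0.24 over all omissions), that of *Igfbp7* with sex as a covariate (−0.12), that of *Igfbp4* under quantile normalization (−0.034) and that of *Igfbp6* without heterozygous replicate 2 (−0.32 to 0.014 over the omissions). Each value with sex as a covariate rests on heterozygous replicate 2 as the only male heterozygous pup. The causes were not tested.

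With the replicate number as a replicate block 0 IGF genes, 30 entries and 0 pathway entries were called, and *Igfbp5* had an adjusted p of 0.0957. Same-numbered libraries had correlations of their deviations from the group means of 0.05, −0.23 and −0.14, and not every library correlated best with its own number, so the numbers were not taken to pair the pups.

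With 3 pups per genotype, no single permutation test can go below 0.1, intervals are wide, and the sex of the pups is partly aligned with genotype. FPKM without counts give no counting error for low genes such as *Stc1*.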
